A study of Mus musculus with 6 samples.

Results

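The comparison set both sorted fractions of the normal mouse aortic root against each other, the smooth muscle cell (SMC) lineage and the cells outside it. Its members were the cells of the control lineage-positive and lineage-negative libraries that had 1000 or more unique molecular identifiers (UMIs, 1 per captured RNA molecule), 500 or more detected genes and no more than 10% mitochondrial UMIs. These were 9942 of the 41759 such cells of the series, 5432 of them lineage-positive and 4510 lineage-negative. The study made single-cell libraries of aortic roots of male mice aged 24 weeks, 1 lineage-positive and 1 lineage-negative library for each of 3 genotypes. Control libraries came from littermates labelled Control for Fbn1, the fibrillin-1 gene, with a wild type Klf4 allele. Marfan libraries carried Fbn1 C1041G/+ with a wild type Klf4 allele, and the remaining pair carried Fbn1 C1041G/+ with floxed Klf4, which the design text describes as an induced deletion. Per the labels, 4 animals were pooled for each group, the tissue from below the valve to the middle of the ascending aorta was digested with Liberase and elastase, and tdTomato fluorescence separated lineage-traced SMCs from other cells. The sources used here do not name the Cre driver or the reporter allele. Animals of a pool cannot be told apart, so each group was 1 library. Each ratio therefore sets a single library against another, with no replicate check, no test and no p-value. All intervals are exact 95% intervals that cover counting error only.

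SMCs of the arterial media contract through smooth muscle actin and myosin, and the same cells make the elastic lamellae of the vessel wall. Serum response factor (SRF) and its cofactor myocardin switch on contractile genes through a DNA element called the CArG box. Fibroblasts of the adventitia, valve and outflow tract connective tissue cells, resident macrophages and endothelium make up much of the rest of the root. The comparison asked which genes, besides contractile ones, separate the SMC lineage from those neighbours.

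CArG boxes were looked for in the promoters of the separating genes, since SRF binds this element. The window was 250 bases before to 50 bases after each start in RefSeq (GRCm38.p6), on both strands. Of the 162 genes at least 8-fold higher in the lineage-positive library, 123 had a promoter in the table, and 5 of those held a CArG box. All 5 are shown, 5′ to 3′ on the gene's strand, with the box in capitals and up to 30 bases on each side. Fbxl22, an F-box protein of muscle, had it 222 to 213 bases before its start (chr9:66514776-66514843, minus strand). Myl9, the regulatory light chain of smooth muscle myosin, had it 161 to 152 bases before (chr2:156775273-156775342, plus strand). Asb2, a ubiquitin ligase subunit that targets filamins, had it 64 to 55 bases before (chr12:103356026-103356095, minus strand). Ldb3, a Z-disc protein, had it 109 to 100 bases before the start of 1 of its transcripts and 35 to 26 bases before that of another (chr14:34588677-34588746, minus strand). Myom1, a sarcomeric M-band protein, had it 99 to 90 bases before (chr17:71019428-71019497, plus strand).
Fbxl22: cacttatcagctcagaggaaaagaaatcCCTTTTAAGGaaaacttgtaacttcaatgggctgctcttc
Myl9: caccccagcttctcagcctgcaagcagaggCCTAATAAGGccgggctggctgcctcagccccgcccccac
Asb2: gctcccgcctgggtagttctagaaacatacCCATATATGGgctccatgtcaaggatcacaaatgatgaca
Ldb3: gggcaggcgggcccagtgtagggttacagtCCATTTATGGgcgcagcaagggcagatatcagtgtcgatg
Myom1: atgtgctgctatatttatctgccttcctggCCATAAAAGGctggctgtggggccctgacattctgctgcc
The core differed among the 5 genes in its central A and T bases. A CArG box stood in 1.63% of all 32851 promoters listed there. The table covered 77.3% of all higher genes and 75.9% of those at least 8-fold higher, under 80%, so a comparison of these shares between gene sets is void. In the contractile list, 25 of 29 measured genes had a promoter, and 2 of the 25 held a CArG box. Only the exact form printed above was searched, CC and GG with A or T bases alone between them. Variant boxes and boxes outside the window were not looked for, so a gene without a match may still have one. The shorter motif CATTCC, bound by TEAD factors and searched on both strands, stood in 11 of those 25 genes (44.0%), beside 16.6% of all 27025 genes and 14.7% of all promoters in the table. Among the leading genes outside the contractile list it stood in 1 of the 18 with a promoter (5.56%), and among all such genes at least 8-fold higher in 14 of 107 (13.1%). The promoters covered 72% and 74.8% of these sets, also under 80%, so these shares are not to be compared with those of the contractile list or of all genes. A match is a string of letters in a window and not a measured binding site.

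The lineage-positive library held 8218 barcodes and 71583972 UMIs, and the lineage-negative library 5167 barcodes and 47750360 UMIs. Kept cells had a median of 11493 and 9968.5 UMIs, so depth was similar. The mitochondrial limit removed 29.4% of lineage-positive barcodes and 8.40% of lineage-negative ones, and kept cells still differed in mitochondrial share, with medians of 4.54% and 2.45%. With that limit at 5% or 20%, or with every deposited barcode used, 693 to 723 genes were higher and 2237 to 2301 lower, beside 697 and 2321 as reported below. The libraries shared 10 barcodes, of which 3 passed the filters in both. Kept cells of the other 4 libraries had medians between 10225 and 13033 UMIs, except the Marfan lineage-positive library at 2101.5.

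The reporter and the defining SMC gene followed the sort labels. TDT, the added reporter feature, stood at 342 UMIs per 1000000 UMIs of kept cells (CPM) in the lineage-positive library (interval 337 to 346). In the lineage-negative library it stood at 5.42 CPM (interval 4.77 to 6.13). A UMI of TDT was found in 89.0% of lineage-positive cells and in 4.90% of lineage-negative cells, and in 3.43% of the macrophage or monocyte-like cells among the latter (median depth 10500 UMIs). With every cell thinned to 2000 UMIs (126 and 162 cells below that depth dropped), the shares were 46.6% and 0.897%. Myh11, which encodes smooth muscle myosin heavy chain, was at 2591 and 47.3 CPM and had a UMI in 98.6% and 5.79% of cells, with 4.07% in macrophage or monocyte-like cells. Thinned shares for Myh11 were 94.6% and 2.60%. Macrophage or monocyte-like cells, which should lack both genes, had thinned shares of 0.664% for TDT and 0.885% for Myh11 (interval 0.242 to 2.25), and these are read as background for those genes only. Dcn, a fibroblast marker, had a UMI in 91.4% of macrophage or monocyte-like cells (46.2% thinned), at 1012 CPM. Endothelial-like cells held Dcn at 2825 CPM. C1qa, a macrophage marker, had a UMI in 14.8% of fibroblast-like cells. Counts were not corrected for RNA carried over between cells, and its part in the levels of cell groups was not tested.

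Joint clustering of the 9942 cells gave 12 clusters. Clusters 0, 1, 3 and 5 together held 90.4% of lineage-positive cells (interval 89.6 to 91.2) and 1.22% of lineage-negative cells. Those 55 lineage-negative cells gave 66.2% of the Myh11 UMIs of their library and 7.94% of its TDT UMIs. Clusters 1, 3 and 5 were SMC-like from their markers and made 63.6% of the lineage-positive library (interval 62.3 to 64.9). Cluster 0, another 26.9%, stayed unnamed because Tnnt2 and Pln, listed as cardiomyocyte markers, led it, although all 11 SMC markers were detected there. Its summed SMC marker level was 56883 CPM, beside 55930 CPM in SMC-like cells, and its summed cardiomyocyte marker level was 2473 CPM, beside 513 CPM. Fibroblast-like cells were 50.6% of the lineage-negative library (interval 49.1 to 52.0), macrophage or monocyte-like cells 10.4% (9.48 to 11.3) and endothelial-like cells 4.15% (3.58 to 4.77). The fibroblast-like class included cluster 10, 145 lineage-negative cells whose leading genes were the interferon-stimulated Cxcl10, Rsad2 and Ifit3. The class was not uniform. Fibroblast markers had a mean log2 level over the median cluster of 1.16 in cluster 10, beside 3.30 and 3.51 in clusters 2 and 7. Cluster 4, 26.1% of the lineage-negative library, was led by Cyp2e1, Npy and Prss35 and stayed unnamed. Cluster 6, led by Chad, Spp1 and Comp, also stayed unnamed and drew 8.14% of lineage-positive and 7.29% of lineage-negative cells. Shares of T or B cells are not given, since Trbc2, Nkg7, Gzma, Ighm and Igkc were at 0 in both libraries.

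Of 10786 genes with at least 5 CPM in either library, 697 (6.46%) were at least 2-fold higher in the lineage-positive library and 2321 (21.5%) at least 2-fold lower. These genes are called higher and lower from here on. The remaining 7768 (72.0%) lay within 2-fold, and the median log2 ratio of all measured genes was -0.27. At 32-fold or more the imbalance was wider, with 32 genes higher and 507 lower. Each library held some cells typical of the other, which limits such ratios. Clusters 0, 1, 3 and 5 made 1.22% of the lineage-negative library. Fibroblast-like and macrophage or monocyte-like cells made 0.865% and 0.295% of the lineage-positive one. Their part in the imbalance was not tested. The contractile list took 8.32% of lineage-positive UMIs and 0.563% of lineage-negative ones, and shares must sum to the whole. With trimmed-mean (TMM) or median-of-ratios scaling the median of all genes moved to 0.14 and 0.15, and higher genes went from 23.1% of calls to 41.6% and 42.2% (1205 higher and 1695 lower, 1230 higher and 1684 lower). Ratios below are on total UMIs. List medians are to be read against -0.27, and list shares against 6.46% higher and 21.5% lower, so all genes already lean to the lineage-negative side. A ratio that rests on 1 to 3 lineage-positive UMIs is given with its interval, and list medians use 3 counts in its place. A ratio of summed libraries does not separate more cells with a gene from more RNA per cell, so levels within cell groups are given beside it.

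**Figure D1:**
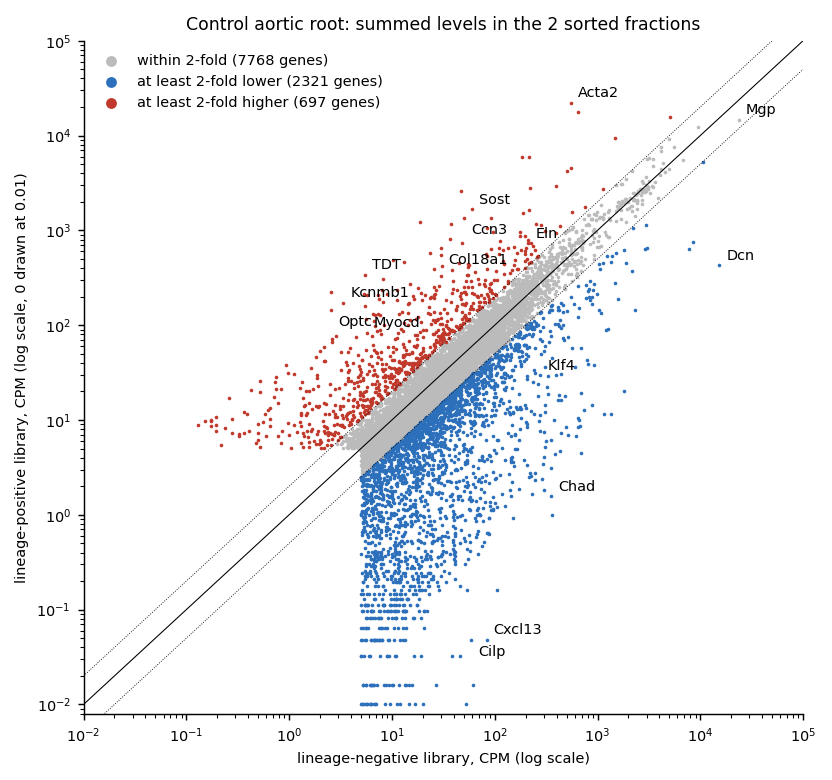
Level of each measured gene in the lineage-negative (x axis) and lineage-positive (y axis) control library, both in CPM on log scales; the solid line marks equal levels and dotted lines 2-fold. Red points are the 697 higher genes, blue points the 2321 lower genes and grey points the 7768 others, and the lower genes reach farther from the line than the higher ones.

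The 25 genes with the largest ratios, after the contractile list was set aside, are described first. Behind TDT (log2 ratio 5.98, interval 5.80 to 6.16), the leading gene was Optc, which encodes opticin, a small leucine-rich proteoglycan (GRCm38, chr1:133897199-133907999, minus strand). Optc stood at 144 CPM against 2.54 CPM, a log2 ratio of 5.82 (interval 5.56 to 6.1). Kcnmb1, the beta subunit of the calcium-activated potassium channel of smooth muscle (chr11:33963013-33973641, plus strand), stood at 173 against 3.38 CPM (log2 ratio 5.68, interval 5.45 to 5.92). Rbm24, a splicing factor of muscle, was at 20.8 against 0.430 CPM (log2 ratio 5.60). Rbm24 was the scarcest of these.

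Fbxl22, whose promoter window is printed above, was at 489 against 10.2 CPM (log2 ratio 5.58, interval 5.45 to 5.71). The sarcoglycan Sgca, part of a complex that joins the membrane to the cytoskeleton, was at 38.3 against 0.924 CPM (log2 ratio 5.37). Mylk4, a myosin light chain kinase family member, was at 309 against 8.15 CPM (log2 ratio 5.25). Myoz2, Xirp1 and Ldb3, proteins of the Z-disc or of actin attachment sites, had ratios of 5.22, 4.78 and 4.66, and Asb2 4.74. Sh3bgr, a small protein with an SH3-binding motif, was at 469 against 13.2 CPM.

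Sost, which encodes sclerostin, a secreted inhibitor of Wnt signalling known from bone (chr11:101962458-101967015, minus strand), stood at 1667 CPM against 60.4 CPM (log2 ratio 4.79, interval 4.73 to 4.84). It stood at 1837 CPM in SMC-like cells, 36.7 CPM in fibroblast-like cells and 12.4 CPM in macrophage or monocyte-like cells. Ccn3, a matricellular protein (chr15:54745702-54754039, plus strand), stood at 1345 against 50.8 CPM (log2 ratio 4.73, interval 4.67 to 4.79). Sost and Ccn3 had the most UMIs of the 25 genes in the lineage-positive library. Ptprz1, a receptor tyrosine phosphatase that binds pleiotrophin, was at 209.9 against 5.74 CPM, and Htr1b, the 1B serotonin receptor, at 31.5 against 0.967 CPM. Susd5 (4.87), Scube3 (4.79), Tafa1 (5.10), Cdh6 (4.77), Grip2 (4.81), Map3k7cl (4.74) and Fam81a (4.67) were further members, each with its log2 ratio in brackets.

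In the lineage-negative library much of what was counted for several of these genes came from few cells. The 55 lineage-negative cells in clusters 0, 1, 3 and 5 gave 70.7% of that library's Mylk4 UMIs, 59.2% of its Kcnmb1 and 36.3% of its Sost. Cluster 6 gave another 31.1% of Sost and 56.3% of Susd5. Asb2 differed, with 59.8% of lineage-negative UMIs in macrophage or monocyte-like cells, where it stood at 11.3 CPM against 65.0 CPM in SMC-like cells.

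**Figure D2:**
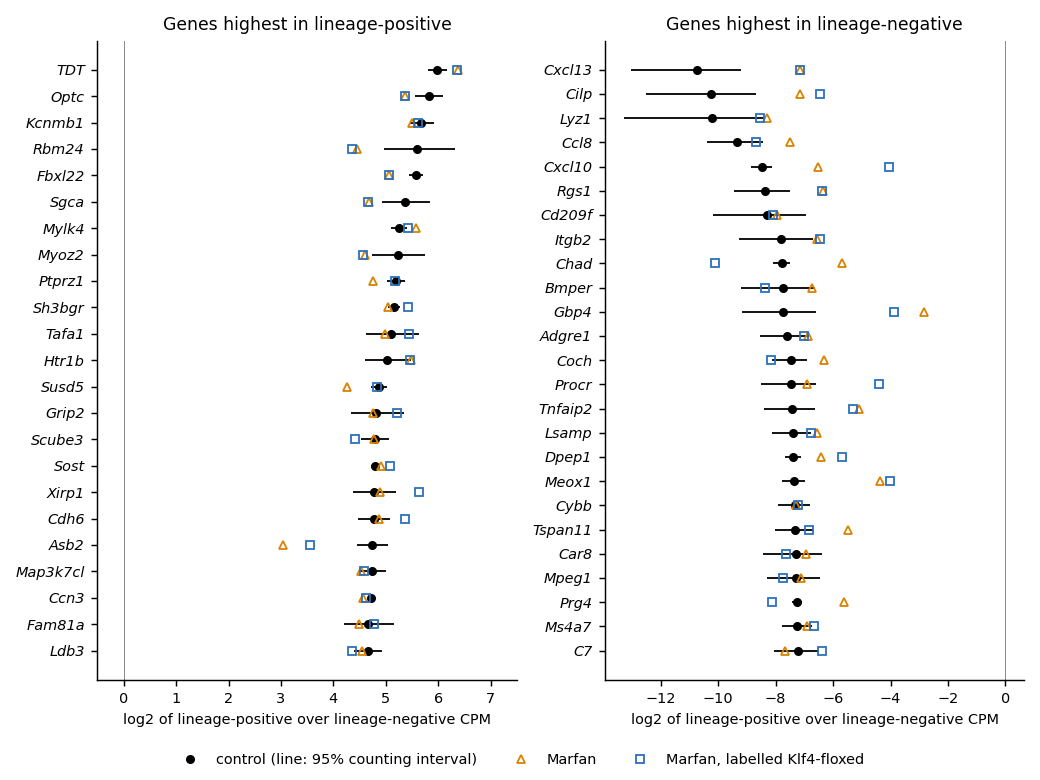
Log2 ratio of lineage-positive over lineage-negative CPM for 23 of the 25 genes with the largest (left) and the 25 with the smallest (right) control ratio outside the contractile list, in control (filled circles with 95% counting intervals), Marfan (triangles) and the pair labelled Klf4-floxed (squares). Control points use the counts as they stand, whereas in the Marfan and Klf4-floxed points counts under 3 were raised to 3. All points on the left lie above 3 and all on the right below -2.

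Across the 4 clusters that hold most lineage-positive cells, 20 of the 25 genes varied by less than 2-fold and 5 by 2-fold or more. TDT varied least, from 329.7 to 344 CPM (1.04-fold), and Ldb3 ranged from 65.9 to 74.9 CPM. Tafa1 varied most, 6.66-fold, with 6.70 CPM in cluster 0 and 44.6 CPM in cluster 1. Mylk4 stood at 118, 451, 381 and 367 CPM in clusters 0, 1, 3 and 5, and Ptprz1 at 87.8, 326, 199 and 278 CPM. The clusters were formed from these same cells and genes, so the spread among them is descriptive. All 25 genes stood higher in each of the 4 clusters than in the fibroblast-like, macrophage or monocyte-like and endothelial-like classes. Their choice by the ratio between the 2 libraries largely fixed that outcome, so it is no further evidence.

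**Figure D3:**
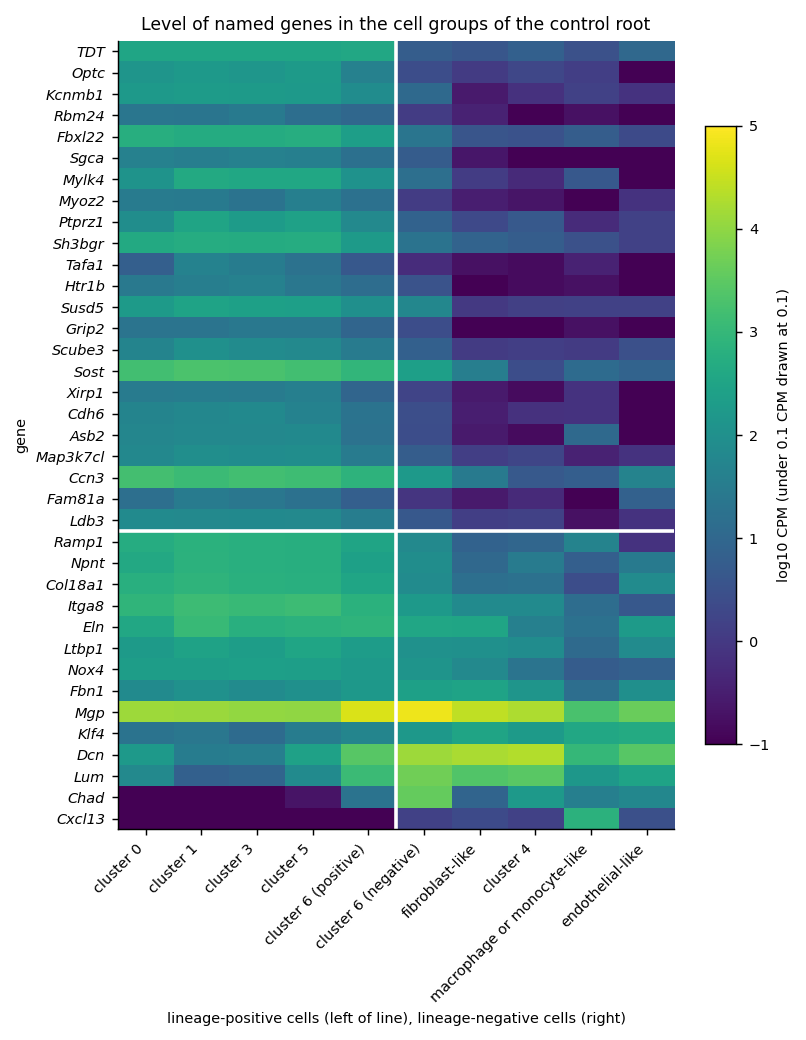
Level of 23 of the 25 leading lineage-positive genes (above the white line) and 14 other named genes (below it) in 10 cell groups, as log10 CPM by colour; lineage-positive groups stand left of the vertical line and lineage-negative groups right. The upper block is bright in clusters 0, 1, 3 and 5, dimmer in lineage-positive cluster 6 and darker still in the lineage-negative groups, where Dcn, Lum and Mgp are bright. Some of its genes, such as Sost and Ccn3, were still counted in lineage-negative cluster 6.

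All 29 measured members of the contractile list were higher, where 6.46% of all measured genes were, with a median log2 ratio of 3.58. Actg2, the enteric smooth muscle actin, had the largest ratio (6.47), at 225 against 2.54 CPM, followed by Cnn1, calponin, at 1232 against 18.8 CPM. Acta2, smooth muscle alpha-actin, stood at 22195 against 549.8 CPM (log2 ratio 5.34) and Tagln, an actin-binding protein, at 17798 against 640.4 CPM (4.80). Among the smallest ratios were those of Hspb1 (1.24), a small heat shock protein, and Synm (1.19), an intermediate filament protein. Measured as SMC-like cells over the highest of the fibroblast-like, macrophage or monocyte-like and endothelial-like classes, the most selective genes mixed both kinds. Cnn1 was 257-fold above its next class and Myh11 130-fold. Outside the contractile list Ptprz1 and Susd5 were each 124-fold above endothelial-like cells. Class counts under 3 were raised to 3 here, and both 124-fold values rest on that limit. Unnamed clusters 4 and 6 were not among the classes. Lineage-negative cells of cluster 6 held Myh11 at 111 CPM, beside 2853 CPM in SMC-like cells. They gave 56.3% of the lineage-negative UMIs of Susd5, 16% of those of Cnn1 and 10.1% of those of Ptprz1.

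**Figure D4:**
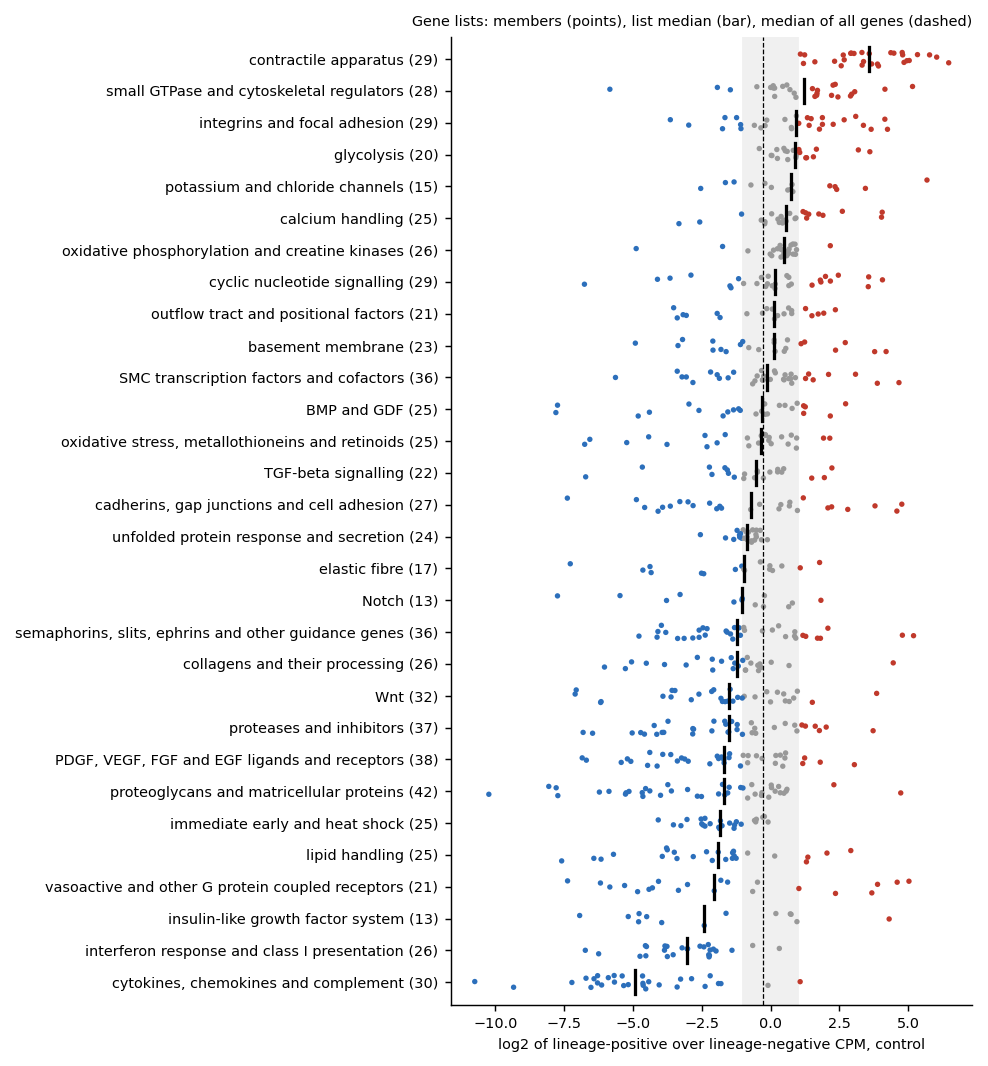
Log2 ratio of lineage-positive over lineage-negative CPM in control for the measured members of 30 gene lists (points, red higher, blue lower, grey within 2-fold), with each list's median (bar) and, in brackets, its measured members; the dashed line is the median of all genes, -0.27. The contractile list stands farthest right at 3.58 and cytokines, chemokines and complement farthest left at -4.91.

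Of 36 measured SMC factors and cofactors, 7 (19.4%) were higher and 10 (27.8%) lower, the lower share near that of all genes (median -0.13, or 0.26 and 0.27 under the other scalings). Myocd, myocardin, was at 83.3 against 5.68 CPM (log2 ratio 3.88, interval 3.70 to 4.06), and Csrp2, a LIM-domain cofactor, at 4274 against 504 CPM (3.08). On the lower side stood Ebf2 (-5.64), a factor found in cluster 7 fibroblast-like cells at 85.0 CPM, and Tbx3 (-3.39). Klf4, a factor that represses contractile genes and the gene floxed elsewhere in the study per the labels, was at 29.7 against 277 CPM (log2 ratio -3.22, interval -3.29 to -3.15). Within the lineage-negative library Klf4 stood at 471 CPM in endothelial-like, 396 CPM in macrophage or monocyte-like and 314 CPM in fibroblast-like cells, beside 22.8 CPM in SMC-like cells.

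Of 21 measured factors of the outflow tract and of body position, 5 (23.8%) were higher and 6 (28.6%) lower, the lower share again near that of all genes (median 0.14, and -0.03 without macrophage or monocyte-like cells). The Hox genes Hoxa4, Hoxb2 and Hoxa3, which mark position along the body axis, had log2 ratios of 2.35, 1.93 and 1.73. Hoxa3 stood at 32.2 CPM in SMC-like and 15.1 CPM in fibroblast-like cells, and at 0.662 CPM in cluster 4. Sox9, the regulator of cartilage and valve matrix, stood at 12.0 against 138 CPM (log2 ratio -3.52), with 264 CPM in cluster 4. Tbx5 was scarce at 0.629 against 5.70 CPM.

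Ion channel and calcium genes leaned to the lineage-positive side. Of 15 measured potassium and chloride channel genes, 5 (33.3%) were higher and 3 (20%) lower (median 0.73). Kcnab1, a voltage-gated channel subunit, stood at 136 against 12.5 CPM and Kcnd3, a transient outward channel, at 11.7 against 2.21 CPM. The subunits of the vascular ATP-sensitive channel went the other way, with Abcc9 at 61.9 against 193 CPM (log2 ratio -1.64) and Kcnj8 at 24.6 against 61.7 CPM (-1.33). Both are also pericyte markers, yet they were highest in fibroblast-like cells, at 319.6 and 107 CPM. No cluster was pericyte-like, and the 8 pericyte markers had summed levels of 263 and 574 CPM in the lineage-positive and lineage-negative libraries. Rgs5, another of the 8, was among the leading genes of SMC-like cluster 5. With doublets removed, a cluster with 11.1% of lineage-positive cells stayed unnamed because Rgs5 was among its leading genes.

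Of 25 measured calcium handling genes, 9 (36%) were higher and 3 (12%) lower (median 0.56). Pcp4l1, a calmodulin-binding peptide, was at 185 against 11.2 CPM, and it was also at 211 CPM in endothelial-like cells. Ryr2, the cardiac ryanodine receptor of calcium release, was at 30.2 against 1.85 CPM (log2 ratio 4.03, interval 3.72 to 4.36), and Cacnb2, a calcium channel beta subunit, at 30 against 4.92 CPM. Lower were Itpr2, an inositol trisphosphate receptor (-3.33), the stretch-gated channel Piezo1 (-2.57) and the calcium pump Atp2b1 (-1.06).

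Of 21 measured receptors for vasoactive agents, 6 (28.6%) were higher and 13 (61.9%) lower (median -2.05). Besides Htr1b, the higher genes included Ramp1, a subunit of the receptor for calcitonin gene-related peptide, at 573 against 23.7 CPM (log2 ratio 4.60), and P2rx1, an ATP-gated channel, at 7.30 against 0.494 CPM. P2ry1 (-7.38 on 3 UMIs, interval -9.66 to -5.82) and Lpar1 (-6.18), receptors for nucleotides and lysophosphatidic acid, were the lowest. Lpar1 was at 123 CPM in fibroblast-like cells.

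Of 29 measured cyclic nucleotide genes, 9 (31%) were higher and 7 (24.1%) lower (median 0.16). Rgs4, which shortens G protein signals, stood at 74.7 against 4.47 CPM, Mrvi1, a substrate of the cyclic GMP-dependent kinase, at 168 against 14.2 CPM, and Adcy5, an adenylyl cyclase, at 191 against 16.3 CPM. Their log2 ratios were 4.06, 3.56 and 3.55. The phosphodiesterases Pde7b (-6.76) and Pde9a (-4.11) and the kinase subunit Prkar2b (-3.65) were the lowest, and Pde7b and Prkar2b stood at 32.4 and 47.7 CPM in cluster 4.

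Cytoskeletal regulators and adhesion to matrix were the lists with the largest medians after the contractile one. Of 28 small GTPase and cytoskeletal genes, 14 (50%) were higher and 3 (10.7%) lower (median 1.22). Dstn, an actin-depolymerizing factor, was at 4572 against 550.0 CPM and Rasl12, a Ras-like GTPase, at 131 against 7.35 CPM. Rerg, another Ras-like protein, was the lowest at 0.387 against 22.2 CPM, with 62.5 CPM in cluster 4.

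Of 29 measured integrin and focal adhesion genes, 14 (48.3%) were higher and 7 (24.1%) lower (median 0.94). Itga8, the alpha chain of the nephronectin receptor and a marker used for naming SMC-like clusters, stood at 1068 against 85.0 CPM (log2 ratio 3.65). Itga7, a laminin receptor chain of muscle, stood at 42.0 against 2.21 CPM (4.25) and Lims2, a focal adhesion adaptor, at 269 against 15.2 CPM (4.15). Itga6 (-3.64) and the collagen receptor chain Itga11 (-2.98) were the lowest. In SMC-like cells the list's median was above 0 against each lineage-negative group, 1.42 against fibroblast-like, 1.15 against cluster 4, 2.32 against macrophage or monocyte-like and 0.91 against endothelial-like cells. Over all genes the same medians were -0.20, -0.25, 0.08 and -0.45.

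Of 27 cell-to-cell adhesion genes, 7 (25.9%) were higher and 13 (48.1%) lower (median -0.73). Cdh6, a classical cadherin, was at 53.8 against 1.98 CPM and Mcam, an immunoglobulin-family adhesion protein, at 213 against 8.86 CPM (log2 ratio 4.59). Tinagl1, a matrix protein, was at 247 against 17.8 CPM in the whole libraries, and endothelial-like cells at 358 CPM were above SMC-like cells at 258 CPM. Cdh19 (-7.39 on 3 UMIs, interval -9.67 to -5.83), Icam1 (-4.88) and Thy1 (-4.58) were the lowest.

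Of 13 Notch genes 1 (7.69%) was higher and 7 (53.8%) lower (median -1.03). The higher gene was Hey2, a target repressor, at 42.0 against 11.8 CPM, while endothelial-like cells held 83.8 CPM. Notch3, the receptor characteristic of arterial SMCs, was within 2-fold at 18.2 against 10.5 CPM (log2 ratio 0.79, interval 0.64 to 0.95), and the other scalings placed it at 1.18 and 1.19. The ligands Dlk1 (-7.74 on 3 UMIs, interval -10.03 to -6.19) and Dll1 (-3.78), and Lfng (-5.47), a receptor-modifying enzyme, were the lowest.

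Of 22 genes of TGF-beta signalling, 3 (13.6%) were higher and 8 (36.4%) lower (median -0.53). The higher ones included Tgfb1i1, a focal adhesion cofactor, at 271 against 69.9 CPM, and Ltbp1, which stores latent TGF-beta in matrix, at 249.6 against 88.7 CPM. Tgfbi, a secreted target, was the lowest at 2.32 against 245 CPM (log2 ratio -6.72). Thbs1, thrombospondin, which can activate latent TGF-beta, was at 16.4 against 415 CPM (-4.66), with 1220.2 CPM in lineage-negative cells of cluster 6. The co-receptor Eng was at 603 CPM in endothelial-like cells and 18.9 CPM in SMC-like cells.

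Among 25 BMP and GDF genes, 5 (20%) were higher and 11 (44%) lower (median -0.32, or 0.06 and 0.08 under the other scalings). Bmp3, an inhibitory family member, stood at 52.3 against 7.91 CPM, the receptor Bmpr1b at 29.5 against 6.56 CPM and the activin chain Inhba at 133 against 55.6 CPM. The ligand Bmp5 (-8.39 on 2 UMIs, interval -11.44 to -6.53), the modulator Bmper (-7.74) and Bmp6 (-4.81) were the lowest. Cluster 4 held 72.1% of the lineage-negative UMIs of Bmper.

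Of 32 Wnt genes, 2 (6.25%) were higher and 20 (62.5%) lower (median -1.51). Lgr6, a receptor for R-spondins, stood at 99.0 against 6.86 CPM (log2 ratio 3.85) and Nkd1, an intracellular inhibitor, at 90.6 against 31.7 CPM. Wnt16, a ligand, was within 2-fold at 109.8 against 56.0 CPM (0.97), and above 2-fold under both other scalings (1.36 and 1.37 for Wnt16). The inhibitor Dkk2 (-7.10 on 3 UMIs, interval -9.39 to -5.54), the transcription factor Lef1 (-7.06) and the ligand Wnt11 (-6.18) were the lowest.

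Of 38 genes for growth factors of the PDGF, VEGF, FGF and EGF families and their receptors, 4 (10.5%) were higher and 23 (60.5%) lower (median -1.69). Fgf1, an FGF without a secretion signal, stood at 54.9 against 6.66 CPM (log2 ratio 3.04), the ligand Pdgfd at 103 against 29.6 CPM and the receptor Fgfr2 at 37.7 against 16 CPM. Pdgfrb, a mural cell receptor, was within 2-fold at 93.3 against 166 CPM (-0.83), and Pdgfra, the fibroblast receptor, was lower at 11.6 against 243 CPM (-4.39). The endothelial receptors Tek (-6.85) and Flt4 (-7.28 on 2 UMIs, interval -10.33 to -5.41) and the EGF-family ligand Areg (-5.43) were the lowest. Among 36 guidance genes, 7 (19.4%) were higher and 20 (55.6%) lower (median -1.23). Ncam1, a neural adhesion molecule, followed Ptprz1 and Sost at 253 against 59.9 CPM, and the receptors Gfra1 and Gfra2 for the GDNF family stood at -4.09 and -4.78.

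Of 17 elastic fibre genes, 2 (11.8%) were higher and 8 (47.1%) lower (median -0.97). Eln, elastin, was at 729 CPM (interval 722 to 736) against 212 CPM (208 to 217), a log2 ratio of 1.78, and Lox, which cross-links elastin and collagen, at 96.0 against 45.6 CPM (1.08). Within the lineage Eln ranged from 386 CPM in cluster 0 to 1088 CPM in cluster 1, and fibroblast-like cells held 330.3 CPM. Fbln5, which assembles elastic fibres, was within 2-fold (0.41). Fbn1, the gene altered in Marfan syndrome, was lower in the SMC lineage, at 99.3 against 205 CPM (log2 ratio -1.05, interval -1.09 to -1.0), and the other scalings placed it within 2-fold. Emilin2 (-7.28), Fbln2 (-4.64) and Fbln1 (-4.38) were the lowest.

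Of 26 genes for collagens and their processing, 1 (3.85%) was higher and 15 (57.7%) lower (median -1.24). The higher gene was Col18a1, the endostatin-containing collagen of basement membranes, at 652 against 29.8 CPM (log2 ratio 4.45, interval 4.38 to 4.53). Col1a1, the main fibrillar collagen, stood at 240.1 against 826 CPM (-1.78), with 237 CPM in SMC-like and 1172 CPM in fibroblast-like cells. Col11a1 (-6.04), Col8a2 (-5.28) and Col5a3 (-5.05) were the lowest, and lineage-negative cells of cluster 6 held 78.0 and 121 CPM of Col11a1 and Col8a2. Against the lineage-negative groups one at a time, the list's median in SMC-like cells was -1.37 for fibroblast-like cells, -1.12 for cluster 4, 0.72 for endothelial-like and 2.76 for macrophage or monocyte-like cells.

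Of 23 basement membrane genes, 6 (26.1%) were higher and 9 (39.1%) lower (median 0.13, and -0.04 without macrophage or monocyte-like cells). Npnt, nephronectin, the ligand of the integrin that Itga8 forms, was at 549 against 30 CPM (log2 ratio 4.20), and Bcam, a receptor for laminin alpha 5, at 418 against 30.4 CPM (3.78). Lama5, laminin alpha 5 itself, was at 25.9 against 3.96 CPM (2.71), so both genes of each ligand and receptor pair were higher. Bcam and Lama5 were also at 277 and 46.7 CPM in endothelial-like cells. Lama2, Nid1 and Lamb1, other basement membrane components, had ratios of -3.20, -3.37 and -4.91 and stood at 288, 236 and 68.8 CPM in fibroblast-like cells.

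Of 42 proteoglycan and matricellular genes, 2 (4.76%) were higher and 26 (61.9%) lower (median -1.71). Besides Ccn3 the higher gene was Acan, aggrecan, at 18.9 against 3.85 CPM (log2 ratio 2.30). Acan was at 22.3 CPM in SMC-like cells but 41.4 CPM in lineage-negative cells of cluster 6, which gave 81.6% of its lineage-negative UMIs. Dcn, decorin, and Lum, lumican, stood at 430.1 against 15226 CPM (-5.15) and 146 against 2339 CPM (-4.0). Lineage-positive cells of cluster 6 gave 51.5% of the lineage-positive UMIs of Dcn and 65.9% of those of Lum. Cilp (-10.24 on 3 UMIs, interval -12.52 to -8.69), Has2 (-8.06 on 3 UMIs, interval -10.34 to -6.51) and Chad (-7.79) were the lowest. Spp1, osteopontin, was at 3.80 against 145 CPM (-5.25), with 1508 CPM in lineage-negative cells of cluster 6. Mgp, matrix Gla protein, an inhibitor of calcification, was abundant on both sides at 14651 against 23550.5 CPM (-0.68).

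Of 37 proteases and inhibitors, 6 (16.2%) were higher and 23 (62.2%) lower (median -1.52). Mmp17, a membrane-anchored metalloproteinase, was at 20.4 against 1.55 CPM (log2 ratio 3.72), Timp4 at 19.6 against 4.84 CPM and the serine protease Prss23 at 214 against 62.8 CPM. Pi16 (-6.81), Prss35 (-6.47) and Adamtsl2 (-5.03) were the lowest. Pi16 marks adventitial fibroblasts and stood at 670.4 CPM in fibroblast-like cells, whereas Prss35 stood at 147 CPM in cluster 4.

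The insulin-like growth factor system was split between binding proteins. Of 13 genes 1 (7.69%) was higher and 8 (61.5%) lower (median -2.41). Igfbp2 stood at 131 against 6.60 CPM (log2 ratio 4.31, interval 4.14 to 4.48) and ranged from 59.5 CPM in cluster 0 to 278 CPM in cluster 1, which it leads. Igfbp6, Igfbp5 and Igfbp3 stood at 291, 694 and 172 CPM in the lineage-negative library and at 2.37, 19.2 and 6.19 CPM in the lineage-positive one. Of the fibroblast-like, macrophage or monocyte-like and endothelial-like classes, Igfbp5 was highest in endothelial-like cells, at 3682 CPM. Cluster 11, 15 unnamed lineage-negative cells, gave 12.0% of the lineage-negative Igfbp5 UMIs, beside 15.4% from the 187 endothelial-like cells.

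Among metabolic genes, those of glycolysis leaned to the lineage-positive side and those of lipid handling to the other. Of 20 glycolysis genes, 8 (40%) were higher and 0 lower (median 0.87), led by Pgam2, the muscle phosphoglycerate mutase, at 5.75 against 0.473 CPM. Slc2a4, the insulin-responsive glucose transporter, was at 11.9 against 1.31 CPM (log2 ratio 3.19) and Slc2a1, the basal transporter, at 29.0 against 9.16 CPM. Pgam2 came mainly from cluster 0, at 18.4 CPM there and 1.57 CPM in SMC-like cells. Of 26 genes of oxidative phosphorylation, fatty acid use and creatine kinases, 1 (3.85%) was higher and 2 (7.69%) lower (median 0.47). The higher gene was Fabp3, the muscle fatty acid-binding protein (2.17), and the lower ones were the cytochrome oxidase subunit genes Cox8b (-4.88) and Cox4i2 (-1.75).

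Of 25 lipid handling genes, 4 (16%) were higher and 19 (76%) lower (median -1.90). Ptgis, prostacyclin synthase, stood at 1102 against 432 CPM (log2 ratio 1.35), Plin4, a lipid droplet coat protein, at 92.1 against 12.2 CPM and Vldlr, a lipoprotein receptor, at 116 against 28.0 CPM. Ptges, the prostaglandin E synthase, was in contrast at 0.177 against 12.7 CPM (-6.16), and the phospholipases Pla1a (-6.42) and Pla2g5 (-8.18 on 2 UMIs, interval -11.23 to -6.32) were also low. Among 25 genes of oxidative stress and retinoid metabolism, 2 (8%) were higher and 9 (36%) lower (median -0.34, or 0.12 and 0.13 under the other scalings). Nox4, a hydrogen peroxide-forming oxidase, was at 223 against 50.3 CPM (2.15) and Nqo1, a quinone reductase, at 24.0 against 6.34 CPM. The retinoic acid-forming enzymes Aldh1a2 (-8.34 on 1 UMI, interval -13.65 to -5.85) and Aldh1a3 (-6.57) were the lowest.

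Cytokine, chemokine and complement genes had the median farthest from 0 among the 30 lists. Of 30 measured, 1 (3.33%) was higher and 28 (93.3%) lower (median -4.91). Cxcl13, a B cell chemokine (chr5:95956951-95961068, plus strand), had the smallest ratio of all 25 leading lineage-negative genes, at 0.0484 against 83.2 CPM (log2 ratio -10.75, interval -13.03 to -9.20). The lineage-positive value rests on 3 UMIs. Macrophage or monocyte-like cells gave 97.9% of its lineage-negative UMIs and 94.5% of those of Ccl8, another chemokine (-9.34). They gave over 94% of those of Lyz1, Rgs1, Cd209f, Itgb2, Adgre1, Cybb, Mpeg1 and Ms4a7 too, genes of phagocytes whose log2 ratios lay between -10.23 and -7.24. The lowest of these, of Lyz1, rests on 2 lineage-positive UMIs (interval -13.28 to -8.38). Csf1r, the macrophage growth factor receptor, and Ptprc, the leukocyte surface protein CD45, had ratios of -6.37 and -6.80. The higher gene was Cd59a, which blocks complement lysis, at 99.9 against 47.5 CPM.

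Fibroblast-like cells and cluster 4 gave most of the others. Dpep1 (log2 ratio -7.38), C7 (-7.22), Tspan11 (-7.33) and Lsamp (-7.40) had 97.8%, 92.4%, 89.3% and 75.0% of their lineage-negative UMIs in fibroblast-like cells. Coch, Bmper, Prg4 and Meox1 had 73.5%, 72.1%, 67.8% and 61.5% in cluster 4. Prg4, lubricin, had the most lineage-negative UMIs of the 25, at 4.5 against 688 CPM (-7.26). Chad, chondroadherin, had 83.0% in cluster 6 and stood at 1.58 against 349.9 CPM. Cilp, a cartilage matrix protein (chr9:65265180-65280605, plus strand), was shared between fibroblast-like cells (41.5%) and cluster 4 (47.9%) and had 3 UMIs in the lineage-positive library. Procr and Car8 were highest by share in cluster 4, and Tnfaip2 in macrophage or monocyte-like cells. The endothelial genes Pecam1 and Cdh5 had ratios of -1.85 and -3.92, and Pecam1 was still at 12.7 CPM in the lineage-positive library.

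Of 26 genes of the interferon response and class I presentation, 0 were higher and 24 (92.3%) lower (median -3.03). Rsad2 (-6.73) and Oas1a (-6.25), antiviral proteins, and Ly6e (-4.75), an interferon-induced surface protein, were the lowest. Cxcl10, an interferon-induced chemokine, had 85.1% of its lineage-negative UMIs in the 145 cells of cluster 10, at 0.999 against 359 CPM in the whole libraries, and Gbp4 had 69.3%. B2m, the invariant chain of class I molecules, was at 574 against 1519 CPM (-1.40), with 517 CPM in SMC-like, 1188 CPM in fibroblast-like and 2471 CPM in endothelial-like cells. The list's median in SMC-like cells was below 0 against each group, from -4.49 against macrophage or monocyte-like cells to -2.65 against cluster 4. Without cluster 10, 696 genes were higher and 2310 lower over the whole table, and without macrophage or monocyte-like cells 686 and 2031.

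Cluster 6 was the one group with a sizeable number of cells from both fractions, 442 lineage-positive and 329 lineage-negative, and those differed. TDT stood at 405 CPM in its lineage-positive cells, above the 341 CPM of SMC-like cells, and at 5.96 CPM in its lineage-negative cells. In its lineage-positive cells Myh11 was lower than in SMC-like cells, 1034 against 2853 CPM, and Dcn was higher, 2817 against 89.8 CPM. Mgp was at 45072 CPM in its lineage-positive and 69550.3 CPM in its lineage-negative cells, the highest levels of any group compared here. Chad separated both parts, at 19.3 against 3831 CPM. At a finer resolution 309 of the lineage-positive and 80 of the lineage-negative cells fell into 1 cluster, and 225 of the lineage-negative cells but 8 of the lineage-positive ones into another. With cluster 6 left out of the lineage-positive library, 724 genes were higher and 2393 lower.

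The same contrast was then read in the other genotypes, which are other pools of animals and not replicates of the control pair. Of the 697 genes higher in control, 603 (86.5%) were at least 2-fold higher in Marfan, 593 (85.1%) in the pair labelled Klf4-floxed and 568 (81.5%) in both, where 6.72% and 6.18% of measured genes were higher. Of the 2321 lower genes, 1933 (83.3%), 1999 (86.1%) and 1882 (81.1%) were lower likewise, where 20% and 19.8% of measured genes were lower. None of these genes was at least 2-fold in the opposite direction in either pair. The Marfan lineage-positive library was shallower per cell, as given above. Sost had log2 ratios of 4.79, 4.92 and 5.08 in control, Marfan and the pair labelled Klf4-floxed, and Ccn3 4.73, 4.57 and 4.62. Col18a1 was as close, at 4.45, 4.43 and 4.49.

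A few separating genes had unlike ratios across the pairs. Asb2 had 4.74 in control, 3.03 in Marfan and 3.55 in the pair labelled Klf4-floxed, with 58.8, 32.0 and 32.2 CPM in the lineage-positive libraries. Fbln2, a matrix protein, had -4.64, -1.54 and -1.86, and Gfra2, a neurotrophic factor receptor, -4.78, -0.80 and -0.81. For Gfra2 the lineage-positive level was 1.42, 13.0 and 21.0 CPM and the lineage-negative level 39.1, 22.5 and 36.8 CPM. Itga11 had -2.98, -0.89 and -0.33. Fbn1 had -1.05, -0.59 and -0.49, and Eln 1.78, 2.56 and 2.43. Klf4 had -3.22, -2.56 and -1.58, and its lineage-positive level was 29.7, 45.4 and 119 CPM. The level in the library labelled Klf4-floxed was thus the highest of the 3, and a 3′ count may lie outside the deleted part, so it does not check the label. Differences between genotypes in these ratios were not tested.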

How the data were processed

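The submitters deposited, per library, raw counts of UMIs per gene and cell barcode, made with Cell Ranger (version 6.1.2 per the file headers) with mm10 as the build per the submitters' processing notes. Neither the annotation release nor the settings for calling barcodes stand in the sources used here. Each table had 55402 features. Libraries were captured with Chromium 3′ version 3 chemistry, per the labels' protocols, and titles gave the groups.

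Cells were kept with at least 1000 UMIs, 500 genes and at most 10% mitochondrial UMIs. Counts were summed per library and divided by all UMIs of kept cells (CPM). A gene was measured at 5 CPM or more in either library and called at a 2-fold ratio. Poisson intervals for CPM, conditional binomial intervals for ratios and Clopper-Pearson intervals for shares were exact (scipy 1.17.1). The ratio and interval calculation was tested on simulated data. A library total of 62035651 or 46515200 UMIs makes 1 UMI worth under 0.1 CPM, and the limit that 3 counts set was 0.0484 or 0.0645 CPM. Cells of both control libraries were clustered without integration (scanpy 1.11.5; 10000 UMIs per cell, log-transformed, 2000 variable genes, 30 principal components, 15 neighbours, Leiden resolution 1 with leidenalg 0.10.2). A cluster was named from 18 marker sets unless another class had more markers among its 10 top genes, it had under 20 cells or fewer than 3 markers were detected. Doublets were kept, since the automatic caller marked under 0.5% of cells, and removed by score as an alternative. TMM factors came from edgeR 4.0.16.

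Named genes were the 25 with the largest ratio (at least 20 CPM and 10% of cells in the lineage-positive library) and the 25 with the smallest (20 CPM and 2% of cells in the lineage-negative library). Both sets left out contractile, mitochondrial, ribosomal, haemoglobin, immunoglobulin and unnamed genes. Added were up to 3 members at each end of 30 lists, the 15 most SMC-selective genes between classes, and 21 genes wherever they stood. Other genes given values (Myl9 and Myom1, for their promoter) were chosen after their values were seen. A few genes that the rule picks are not reported here. The members and lists were chosen with earlier results of these data known. Gene coordinates are from GENCODE M21 (GRCm38, which mm10 is), and promoters from RefSeq.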

Additional observations from a re-analysis of the deposited data

Results flagged for a closer look

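Mgp had a log2 ratio of lineage-positive over lineage-negative CPM of -0.68 in control and of 0.64 and 0.66 in Marfan and in the pair labelled Klf4-floxed. It is listed because the direction in control was opposite to that in both other pairs. The lineage-positive levels were 14651, 38265 and 44269 CPM and the lineage-negative levels 23550.5, 24475 and 28054 CPM, in the same order. The lineage-positive library was thus lowest in control, while the lineage-negative levels lay closer together. In control the ratio was -1.05 when lineage-positive SMC-like cells were set against lineage-negative cells outside that class. The difference between pairs was not tested, since each group was 1 library.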

How the results depend on the processing

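With 1 library per group no replicate could be left out, and ratios rest on counting error alone. No paired analysis was possible because each group had 1 library and no test was run. Genes higher (697) and lower (2321) were 1205 higher with TMM and 1230 with median-of-ratios scaling, 1230 and 3555 at a 1.5-fold call, and 319 and 1331 at 4-fold. Lower genes were 1268 at 20 CPM or more and 5195 with no filter on low counts. SMC-like cells made 63.6% of the lineage-positive library and 56.4% and 50.02% at Leiden resolutions 0.5 and 2. They made 31.2% at 4000 UMIs or more and 44.0% with doublets removed. These shares count named clusters only. At 4000 UMIs, clusters with 23.1%, 19.3%, 13.9% and 11.2% of lineage-positive cells also matched SMC best, with 11 SMC markers detected. They stayed unnamed because their 10 top genes held more markers of another class. With doublets removed the same held for further clusters, such as those with 27.4% and 11.1%. How far the naming rule moved the shares was not tested. Fibroblast-like cells went from 50.6% to 57.6% at resolution 2 and 47.4% at 4000 UMIs, and endothelial-like cells from 4.15% to 2.64% and 2.34%. Thinning to 2000 UMIs gave the shares printed above, 46.6% and 0.897% for TDT and 94.6% and 2.60% for Myh11. Named genes were largely picked as extremes of this same ratio, so how well they kept their calls says little about all genes. Of 230 named genes 203 were called, where 6.46% of all measured genes were higher and 21.5% lower. In 16 alternatives each, 3226 of 3248 values of the called genes kept direction and a 2-fold size. The exceptions lay in 7 genes, Fbn1, Atp2b1, Dnajb11, Kcnj8, Lox and Cd59a among them, and 0 values reversed. Of 30 list medians, 5 changed sign in an alternative, as given above. Comparing clusters 0, 1, 3 and 5 with other cells, and leaving out cluster 6, cluster 10 or macrophage or monocyte-like cells, were alternatives chosen after seeing the data, with 686 to 740 genes higher.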

Other observations

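Immediate early and heat shock genes, which respond within minutes to stimulation or handling, stood lower in the lineage-positive library. Of 25 measured, 0 were at least 2-fold higher and 19 (76%) lower (median log2 ratio -1.82, beside -0.27 over all genes). Egr2, Fosb and Nr4a3, transcription factors of this class, were at 1.64, 13.8 and 3.40 CPM against 27.9, 159 and 32.5 CPM. Btg2, Dusp1 and Hsp90aa1 were within 2-fold, at log2 ratios of -0.09, -0.23 and -0.28. In SMC-like cells the list's median was -2.90 against macrophage or monocyte-like cells, -1.35 against fibroblast-like cells, -1.37 against cluster 4 and -0.35 against endothelial-like cells. Fosb stood at 10.6 CPM in SMC-like, 22.3 CPM in endothelial-like, 164 CPM in fibroblast-like and 280.4 CPM in macrophage or monocyte-like cells.

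Genes of the unfolded protein response and of secretion differed less. Of 24 measured, 0 were higher and 8 (33.3%) lower (median -0.85). Fkbp10, which helps collagen folding, stood at 53.1 against 57.6 CPM, and the translocation subunits Sec61b and Ssr4 had log2 ratios of -0.33 and -0.38.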
